A study of Mus musculus with 10 samples.

Results

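The genes described here encode the creatine futile cycle of thermogenic fat, and they were found by symbol in the table of deposited values. Of the 6 genes Gatm, Gamt, Slc6a8, Ckb, Ckmt1 and Alpl, 5 have a row among the 15075 genes of that table, and all 5 were abundant enough to be tested. Ckmt1, the ubiquitous mitochondrial creatine kinase, has no row under its symbol and was not analysed here. The tissue is interscapular brown adipose tissue (iBAT) of 20-week-old C57BL/6 mice kept at room temperature, with polyadenylated RNA from 5 Control and 5 AdCKO mice and 1 library per mouse. Both groups are homozygous for a Crls1 allele with an exon flanked by loxP sites. AdCKO mice also carry Adipoq-Cre, whereas Control mice (WT in the labels) have no Cre. Crls1 encodes cardiolipin synthase, which makes the signature phospholipid of the mitochondrial inner membrane. Because Adipoq-Cre acts in adipocytes, the other cells of the depot keep an intact Crls1, and in whole tissue fewer cells of a type and less RNA per cell cannot be told apart.

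As background, creatine is built in a pair of steps. Gatm (glycine amidinotransferase) joins arginine and glycine to guanidinoacetate in mitochondria, and Gamt (guanidinoacetate N-methyltransferase) then methylates it with S-adenosylmethionine. Slc6a8 is the plasma membrane transporter that brings circulating creatine into the cell. Creatine kinases such as Ckb, the brain-type isoform, and Ckmt1 move a phosphate from ATP to creatine, and in thermogenic adipocytes Alpl (tissue-nonspecific alkaline phosphatase) has been described as the enzyme that removes it again from phosphocreatine. Run in a loop, these last reactions spend ATP without net work and release heat, next to the uncoupling by Ucp1.

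In AdCKO iBAT the transcripts for the kinase, for the first synthetic enzyme and for the transporter rose, whereas the phosphatase and the methyltransferase did not pass the test. Ckb was 3.41-fold, Gatm 2.70-fold and Slc6a8 2.19-fold the Control mean, with no overlap between the groups. Gamt was at 1.34-fold and Alpl at 1.02-fold, both with overlapping groups. Calls were made with limma's moderated test on log2(value + 1) over the 11244 genes whose mean reached 10 normalized reads per kb in either group, at a Benjamini-Hochberg adjusted p under 0.01. Of the 5 genes of the cycle, 3 were called higher, where 25.6% of all tested genes were, and 0 were called lower by limma, where 28.0% were (none was lower at an unadjusted p under 0.05 either). The groups did not overlap in 3 of the 5 genes, and in 50.9% of all tested genes. The median log2 fold change was 1.11 over the 5 genes and -0.01 over all tested genes.

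The windows before the transcription start are shown for Ckb and Gatm, a pair of called genes. Any link between these sequences and the rise was not tested. Each runs for 250 bases up to the start, 5′ to 3′ on the gene's own strand, from RefSeq on GRCm38.p6, and capitals mark the motifs found. Ckb lies at chr12:111672339-111672588 and Gatm at chr2:122611278-122611527, both on the minus strand.
Ckb: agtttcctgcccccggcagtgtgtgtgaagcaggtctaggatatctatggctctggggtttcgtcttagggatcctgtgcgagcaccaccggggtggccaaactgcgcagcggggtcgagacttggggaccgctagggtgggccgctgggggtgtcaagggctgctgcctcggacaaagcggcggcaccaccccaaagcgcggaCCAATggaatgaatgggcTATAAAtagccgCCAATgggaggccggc
Gatm: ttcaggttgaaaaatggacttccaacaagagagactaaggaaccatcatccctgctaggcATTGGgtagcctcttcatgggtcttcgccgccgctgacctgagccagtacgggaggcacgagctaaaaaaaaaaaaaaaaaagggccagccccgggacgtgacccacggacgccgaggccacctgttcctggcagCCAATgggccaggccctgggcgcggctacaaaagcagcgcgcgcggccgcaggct

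Motifs were searched on both strands, and none of the matches below overlaps another motif. In the Ckb window a TATAAA begins 28 bases before the start, between CCAAT boxes that begin at 46 and 16 bases. The Gatm window holds no TATAAA and has its CCAAT boxes at 190 (reverse strand, ATTGG) and 55 bases. CCAAT occurs in 33.8% and TATAAA in 12.4% of the 32851 windows of the same length. Neither window holds the shared core of ATF4 and C/EBP sites (TGATGCAA, in 0.791% of windows), the cAMP response element (TGACGTCA, 1.55%) or its shorter core (TGACG, 17.8%, which lies within the former), the E-box (CACGTG, 6.02%) or the core of estrogen-related receptor sites (AAGGTCA, 4.08%). The Gamt window holds none of the motifs. An Alpl window holds TGACG at 128 bases and TATAAA at 192 bases, each on the reverse strand, and its other window holds none. For Ckmt1, which has no row, AAGGTCA (179 bases) and TATAAA (31 bases) lie in 1 window and CCAAT (242 bases) in the other. All of these Ckmt1 matches are on the reverse strand. The GC contents of the Ckb and Gatm windows, 62.8% and 59.2%, are above the median of 52.4%. Those of Gamt (66.8%), Alpl (68.4% and 56%) and Ckmt1 (52.8% and 56%) are above it too. A window for Slc6a8 is not among those used.

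Gatm (NM_025961), at 122420209 to 122437013 of mm9 chromosome 2 (minus strand), had the lowest level of the cycle. The 5 Control libraries held 12.1, 13.5, 15.6, 11.9 and 14.3 normalized reads per kb, replicates 1 to 5 in order, and the AdCKO libraries 42.5, 29.6, 36.3, 40.8 and 33. Every AdCKO value was thus above every Control value, and the lowest AdCKO library exceeded the highest Control library by 14.0. Mean levels of 13.5 ± 1.57 and 36.5 ± 5.35 (SD, n = 5 each) differed by 1.36 on the log2 scale, with an SE of 0.11 and an adjusted p of 7.44e-07 by limma. Its level lay above that of 33.9% of all genes in Control and 46.9% in AdCKO.

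Gamt (NM_010255), which catalyses the second step, is found at 79720896 to 79723713 of mm9 chromosome 10 (minus strand). Its Control values were 40.7, 77.6, 74.1, 52.9 and 47.4 normalized reads per kb, and its AdCKO values were 72.0, 82.3, 62.6, 95 and 79.1. Control replicates 2 and 3 reached into the AdCKO range, and the other Control libraries lay below all AdCKO libraries. The means of 58.5 ± 16.4 and 78.2 ± 12.1 (SD, n = 5 each) gave a log2 fold change of 0.44 (SE 0.17), with a 95% interval from 0.06 to 0.82 and a limma adjusted p of 0.041, not past 0.01. Gamt was the most variable of the 5 genes in Control iBAT, with a coefficient of variation of 28.0%. At AdCKO replicates 3 and 5 alone its level was 1.21-fold that of Control.

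The transporter Slc6a8 (NM_001142809) lies on the plus strand of chromosome X of mm9 from 70918472 to 70927839. Control libraries held 56.9, 46.8, 51.4, 55.9 and 51.1 normalized reads per kb and AdCKO libraries 102, 132, 117, 121 and 102. The groups were well apart, with 44.8 between the highest Control and the lowest AdCKO library. The mean went from 52.4 ± 4.09 to 115 ± 12.8 (SD, n = 5 each), which is 1.11 on the log2 scale with an SE of 0.09 and an adjusted p of 4.33e-07 by limma. This was the smallest p among the 5 genes, although 9.50% of all tested genes had a larger rise. The low spread in Control, a coefficient of variation of 7.81%, was like that of Alpl at 7.89%.

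Ckb (NM_021273), at 112907566 to 112910549 of mm9 chromosome 12 (minus strand), was the most abundant gene of the cycle per kb in both groups. Control libraries gave 183, 138, 134, 232 and 141 normalized reads per kb, and AdCKO libraries gave 463, 581, 754, 397 and 626. Control replicate 4 was the highest of its group and was still 165 below the lowest AdCKO library, replicate 4. Means of 166 ± 42.2 and 564 ± 140 (SD, n = 5 each) differed by 1.76 on the log2 scale (SE 0.19), with a limma adjusted p of 5.32e-06, and 4.23% of all tested genes rose more. Ckb moved from above 80.7% of genes in Control to above 94.9% in AdCKO. No window of 50 bases in its annotated coding transcripts recurs in those of another gene, Ckm included, and no annotated gene overlaps it or the other 4 genes of the cycle.

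Alpl (NM_007431), at 137297646 to 137352299 of mm9 chromosome 4 (minus strand), showed no detectable change. Control values of 126, 133, 112, 121 and 136 normalized reads per kb stood against AdCKO values of 145, 112, 127, 122 and 132. Both groups spanned nearly the same range, with the highest value in AdCKO replicate 1 and the lowest in Control replicate 3. Mean levels of 126 ± 9.90 and 128 ± 12.3 (SD, n = 5 each) were 0.02 apart on the log2 scale (SE 0.08), at a limma adjusted p of 0.83 and with a 95% interval from -0.16 to 0.20. On a linear scale of value + 1 that interval runs from 0.897-fold to 1.15-fold.

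**Figure D1:**
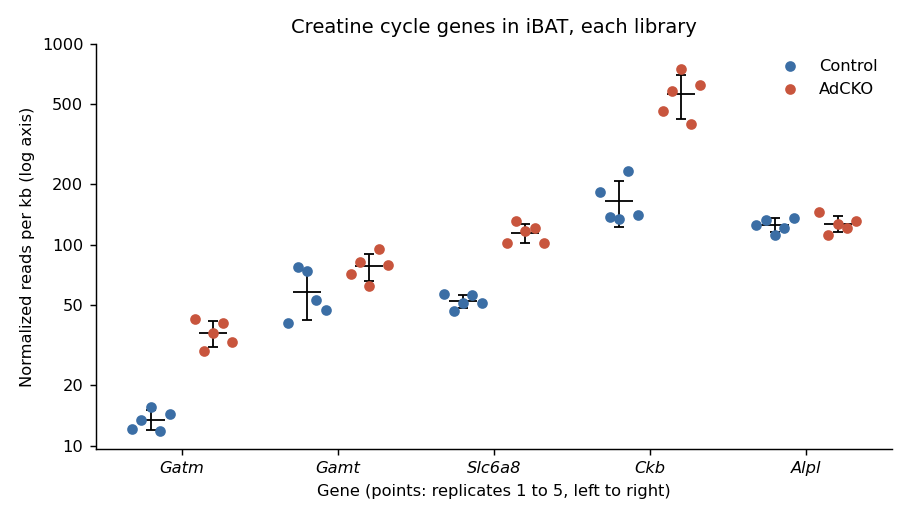
Each point is 1 library, in normalized reads per kb on a log axis, for the 5 genes ordered from creatine synthesis through uptake to phosphorylation and dephosphorylation, with the mean and SD of the 5 Control and 5 AdCKO libraries in black. Gatm, Slc6a8 and Ckb separate into non-overlapping groups, Gamt overlaps through Control replicates 2 and 3, and the Alpl groups lie side by side near 126 and 128.

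In Control iBAT the order of levels per kb was Ckb, Alpl, Gamt, Slc6a8 and Gatm. Ckb exceeded Alpl in each of the 5 Control libraries, but by a log2 ratio of as little as 0.045, and the log2 ratio of Gamt over Slc6a8 of 0.12 ± 0.49 (SD, n = 5) was smaller than its spread. In AdCKO iBAT the order was Ckb, Alpl, Slc6a8, Gamt and Gatm. Alpl and Slc6a8 were neighbours whose log2 ratio changed sign between AdCKO libraries, from -0.50 to 0.23 as Slc6a8 over Alpl, whereas Slc6a8 was above Gamt in all 5.

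A ratio of genes within a library does not depend on how libraries are scaled to each other, apart from the pseudocount of 1. For all 10 pairs of the 5 genes the mean log2 ratio was tested by exact permutation, two-sided, where 5 mice against 5 allow no p below 0.00794, and 7 pairs had an adjusted p under 0.05 over the 10. In the synthetic arm, the log2 ratio of Gatm over Gamt moved from -2.0 ± 0.34 in Control to -1.08 ± 0.31 in AdCKO (SD, n = 5 each) without overlap (exact permutation p = 0.00794, adjusted 0.0198). In the cycle itself, Ckb over Alpl went from 0.37 ± 0.38 to 2.11 ± 0.40 with the same exact p, a difference of 1.74. Gatm over Alpl (difference 1.34) and Slc6a8 over Alpl (1.09) were also free of overlap. Ckb also gained on Slc6a8, by 0.65 (exact permutation p = 0.0159, adjusted 0.0317), with overlapping ranges. Gamt lost ground to both, with differences of 1.32 for Ckb over Gamt and -0.67 for Gamt over Slc6a8 (exact permutation p = 0.0238 and adjusted 0.034 for each).

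The 3 called genes did not all differ from each other in their change. The log2 ratio of Ckb over Gatm was 3.50 ± 0.48 in Control and 3.89 ± 0.51 in AdCKO (exact permutation p = 0.222, n = 5 each), and that of Gatm over Slc6a8 was -1.89 ± 0.24 and -1.63 ± 0.31 (p = 0.135). Gamt over Alpl, at -1.13 ± 0.44 and -0.71 ± 0.31, did not pass either (exact p = 0.119). Leaving out Control replicate 2, 3 or 5 or AdCKO replicate 1, 2, 3 or 5 left 4 pairs with an adjusted p under 0.05, and leaving out any other library left 5 or 7. With a library left out the exact test has fewer splits and its lowest possible p is higher. These counts therefore cannot show whether the ratios rest on single mice.

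**Figure D2:**
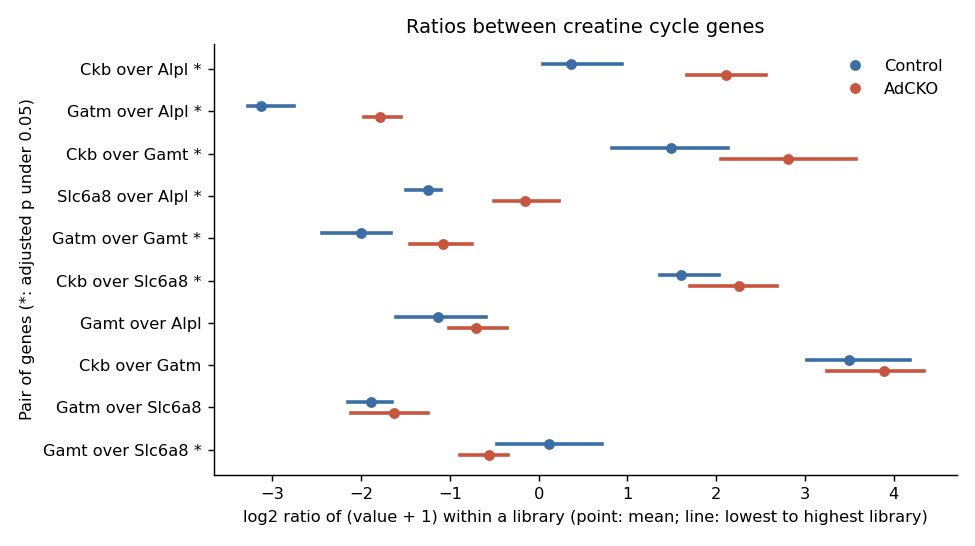
Log2 ratios of (value + 1) between genes of the cycle within each library, with the mean of the 5 Control and 5 AdCKO libraries as points and the range from the lowest to the highest library as lines. The ranges of Ckb, Gatm and Slc6a8 over Alpl and of Gatm over Gamt are apart, and an asterisk marks the 7 pairs with an adjusted p under 0.05.

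The scaling of the libraries bears on the 2 genes that were not called. The summed normalized reads were between 7615403 and 8171138 in Control libraries and between 5419800 and 5843024 in AdCKO libraries. Giving every library the same total shifted the median of all genes by 0.48 on the log2 scale and turned the share of calls that are higher from 47.7% to 86.5% (from 52.3% to 13.5% lower). Under it 61.4% of all tested genes were called higher and 9.57% lower, and Gamt at 0.92 and Alpl at 0.50 were both called higher. Relative to the median of all genes they were at 0.45 and 0.03, and Ckb, Gatm and Slc6a8 at 1.77, 1.35 and 1.12, as against 1.77, 1.38 and 1.12 with the values as deposited.

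**Figure D3:**
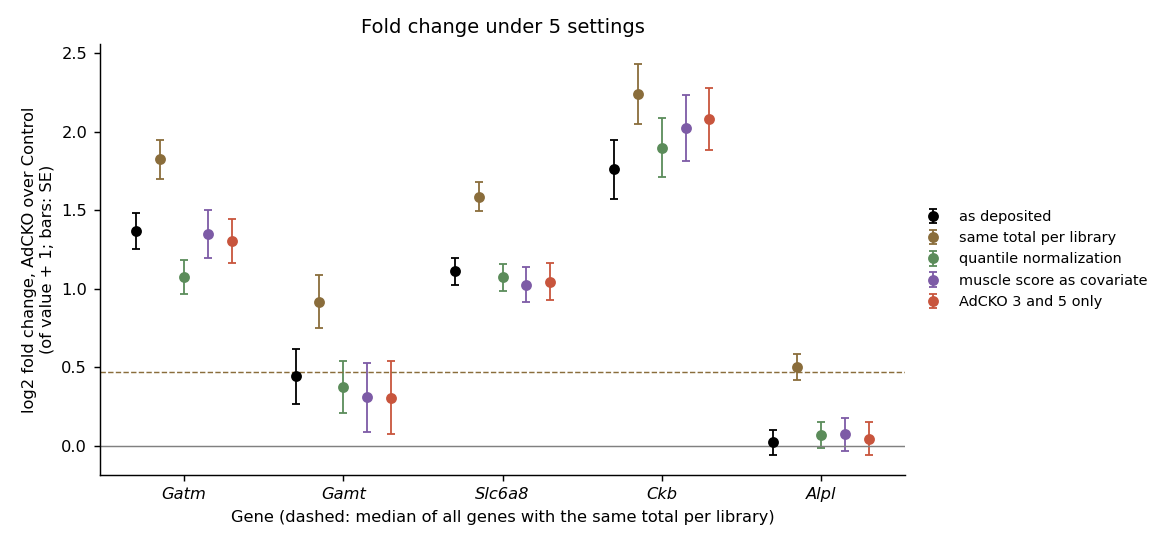
Log2 fold change of AdCKO over Control with its SE for the 5 genes, with the values as deposited and under 4 other settings, and a dashed line at the median of all genes when each library is given the same total. Ckb, Gatm and Slc6a8 lie at or above 1.025 in all 5 settings, whereas Alpl lies near 0 or, with the same total, on the dashed line.

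The libraries were checked for other cell types, and 3 AdCKO libraries stood apart. The sum of 12 skeletal muscle markers was between 487 and 520 normalized reads per kb in Control libraries, 309 and 313 in AdCKO replicates 3 and 5, and 7230, 28247 and 10828 in AdCKO replicates 1, 2 and 4. Among these markers 1 of 12, Acta1, was called higher, and it was above every Control library (39.4 to 56.1) in AdCKO replicates 3 and 5 too, at 93.3 and 74.5. Myl1, which made up most of the sum in Control at 330 to 397, was at 138 and 159 in those 2 libraries. Macrophage markers were higher in 10 of 10, with sums of 462 to 1332 among Control and 6292 to 8376 among AdCKO libraries, and fibroblast markers in 6 of 6, with sums of 968 to 1282 and 4134 to 5835. Of the 7 endothelial markers 3 were higher and 4 were not called (sums of 1511 to 1921 and 1606 to 2258). Of 5 tested glial markers 4 were higher and 1 lower, with a summed level of 496 to 768 among Control and 320 to 563 among AdCKO libraries. None of 3 neutrophil markers with a row was abundant enough to test, with sums of 7.60 to 9.21 among Control and 12.5 to 17.5 among AdCKO libraries, which did not overlap. The summed brown adipocyte list, mostly Fabp4 of adipocytes in general, was at 213154 to 242091 in Control libraries against 131729 to 158098 in AdCKO libraries. Ucp1, which defines brown adipocytes, was present in every library, at 24203 to 46570 in Control and 7895 to 18828 in AdCKO libraries. Of the list 7 of 10 were lower, among them Ucp1, Cidea, Prdm16 and Cox7a1 at 0.342-fold to 0.403-fold the Control mean, with 0 of 10 higher by limma at an adjusted p under 0.01 (1, Dio2, at an unadjusted p under 0.05). Crls1 itself went from 1060 ± 191 to 217 ± 26.4 (SD, n = 5 each) and fell by 2.27 on the log2 scale (limma adjusted p = 3.53e-08).

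In AdCKO replicates 3 and 5 alone, the libraries with low summed muscle markers, against all Control libraries, limma gave log2 fold changes of 2.08 for Ckb, 1.30 for Gatm and 1.05 for Slc6a8 (adjusted p = 1.52e-05, 2.89e-05 and 3.59e-05). The mean level of Ckb was 4.17-fold that of Control in these 2 libraries and 2.90-fold in the other 3. Macrophage and fibroblast markers were high in all 5 AdCKO libraries, and the part of muscle, macrophage and fibroblast transcripts in the values of Ckb, Gatm and Slc6a8 was not tested.

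The other creatine kinases followed the muscle markers. Ckm, the cytosolic muscle isoform, had 12.6, 12.1, 14.5, 12 and 13.5 normalized reads per kb in the Control libraries, against 1390, 5354, 9.50, 1985 and 11.9 in the AdCKO libraries. Ckmt2, the mitochondrial kinase of striated muscle, was at 5.49 to 6.54 in Control and at 174, 282, 4.13, 129 and 5.73 in AdCKO. Both were thus raised in AdCKO replicates 1, 2 and 4, the libraries with high muscle markers, and not in replicates 3 and 5. Neither was called by limma (log2 fold change 4.38 ± 1.57 and 2.77 ± 1.01 (SE), adjusted p = 0.027 and 0.029), although both had an unadjusted p under 0.05. Each passed when AdCKO replicate 3 was left out (adjusted p = 0.0040 and 0.0037) or AdCKO replicate 5 (0.0049 and 0.0062). With the muscle markers as a covariate their log2 fold changes were -0.026 and -0.041.

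As a share of the summed levels per kb of Ckb, Ckm and Ckmt2, Ckb made up 86.4% to 93.0% in Control libraries. It made up 98.2% and 97.3% in AdCKO replicates 3 and 5 and 22.9%, 9.35% and 15.8% in AdCKO replicates 1, 2 and 4. Slc16a12, a further creatine transporter, was too low to test, with a Control mean of 2.28 ± 0.19 and an AdCKO mean of 6.39 ± 1.14 (SD, n = 5 each). Its groups did not overlap, which also held for 50.9% of all tested genes.

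**Figure D4:**
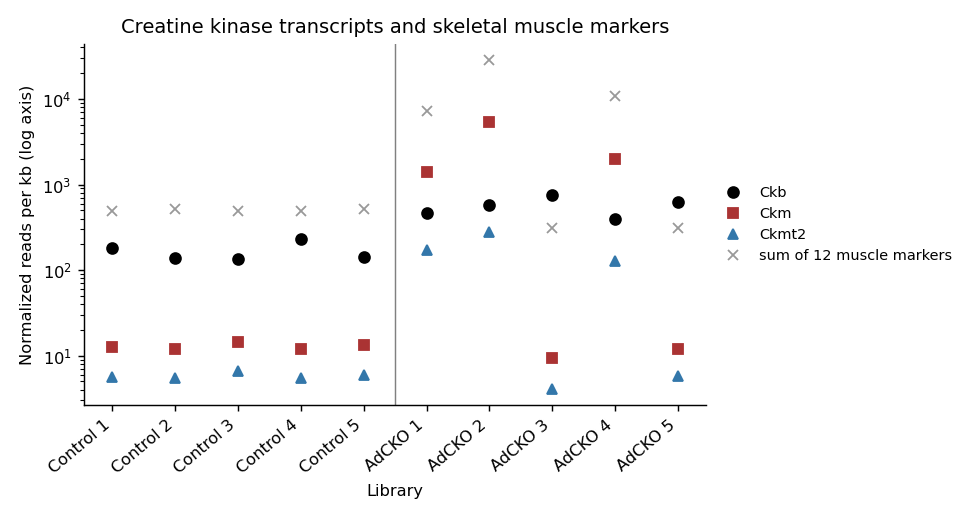
Normalized reads per kb of the 3 creatine kinases with a row and the sum of 12 skeletal muscle markers in each of the 10 libraries, on a log axis. Ckm and Ckmt2 rise together with the muscle sum in AdCKO replicates 1, 2 and 4, while Ckb is above every Control library in all 5 AdCKO libraries.

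Genes that supply the cycle or share its substrates were taken from 3 lists. Of 8 genes of phosphate handling, 4 were tested, and 2 of them were higher, 1 lower and 1 not called (median log2 fold change 0.22). Among all tested genes 25.6% were higher and 28.0% lower. Slc20a1, a sodium-phosphate cotransporter, rose by 1.58 on the log2 scale (limma adjusted p = 9.99e-07), with group means of 45.5 ± 1.59 and 141 ± 31.1 (SD, n = 5 each). Its relative Slc20a2 rose by 0.24 (adjusted p = 0.0032), a call that was lost with the muscle covariate (adjusted p = 0.041), without AdCKO replicate 1 (0.011) and with AdCKO replicates 3 and 5 alone (0.096). Ank, which exports pyrophosphate, fell from 501 ± 69.5 to 231 ± 32.5 (log2 fold change -1.11, adjusted p = 4.13e-06). Phospho1, a phosphatase of brown adipocytes, was at 2269 ± 600 and 2565 ± 330 (SD, n = 5 each; log2 fold change 0.20, limma adjusted p = 0.28), far above Alpl per kb. It was called higher after equalizing library totals (0.68) or after quantile normalization (0.78). Enpp1 was too low to test, and Alpi, Akp3 and Alppl2 have no row.

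Of 17 genes of methyl donor and arginine supply, 13 were tested, of which 3 were higher, 3 lower and 7 not called, with a median log2 fold change of 0.14. These shares lie near those of all tested genes. With equal library totals 9 were higher and 1 lower, where 61.4% and 9.57% of all tested genes were. Mat2a, the catalytic subunit that makes S-adenosylmethionine, rose by 0.69 on the log2 scale (limma adjusted p = 3.97e-05), with group means of 532 ± 54.3 and 862 ± 100 (SD, n = 5 each). Nnmt, which uses S-adenosylmethionine to methylate nicotinamide, rose from 142 ± 28.7 to 615 ± 76.9 (log2 fold change 2.12, adjusted p = 9.72e-08). Ahcyl1, a relative of S-adenosylhomocysteine hydrolase, fell from 1666 ± 85.9 to 599 ± 92.3 (log2 fold change -1.49, adjusted p = 1.28e-07). Gnmt, a glycine methyltransferase, fell from 13.7 ± 1.13 to 7.96 ± 0.47 (log2 fold change -0.71, adjusted p = 3.59e-05) and was no longer called with the same total in every library (-0.27). Arg1 and Arg2 were too low to test, and Mat1a and Bhmt have no row.

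Of 11 genes listed under ATP and ADP exchange, 9 were tested. Of these, 1 was higher, 3 lower and 5 not called, with a median of -0.21. Of all tested genes 25.6% were higher and 28.0% lower. Equal library totals and quantile normalization each gave 3 higher calls in this list (Vdac3, Vdac1 and Slc25a3) in place of 1. Of all tested genes, equal totals called 61.4% higher and 9.57% lower, and quantile normalization 22.2% higher and 31.9% lower. Ak3, a mitochondrial matrix member of the adenylate kinase family, had a log2 fold change of -0.64 (limma adjusted p = 2.25e-05). The ADP/ATP carrier Slc25a5 had one of -0.31 (limma adjusted p = 0.0035) and the outer membrane channel Vdac3 one of 0.31 (adjusted p = 0.0031). The lower calls rest on how libraries were scaled. Neither quantile normalization nor equal totals left any of the 3 lower genes called, and the sign of Slc25a5 turned (0.20 and 0.17). Relative to the median of all genes, the same total left Ak3 at -0.63 and Slc25a5 at -0.30. Vdac3 was no longer called with AdCKO replicates 3 and 5 alone (log2 fold change 0.36, adjusted p = 0.012), nor was Slc25a5 (-0.27, adjusted p = 0.058). Slc25a5 also lost its call without Control replicate 5 (-0.29, adjusted p = 0.012). Neither Vdac3 nor Slc25a5 was called with the muscle covariate or with the replicate number as a block. Slc25a31 and Ak4 were too low to test.

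**Figure D5:**
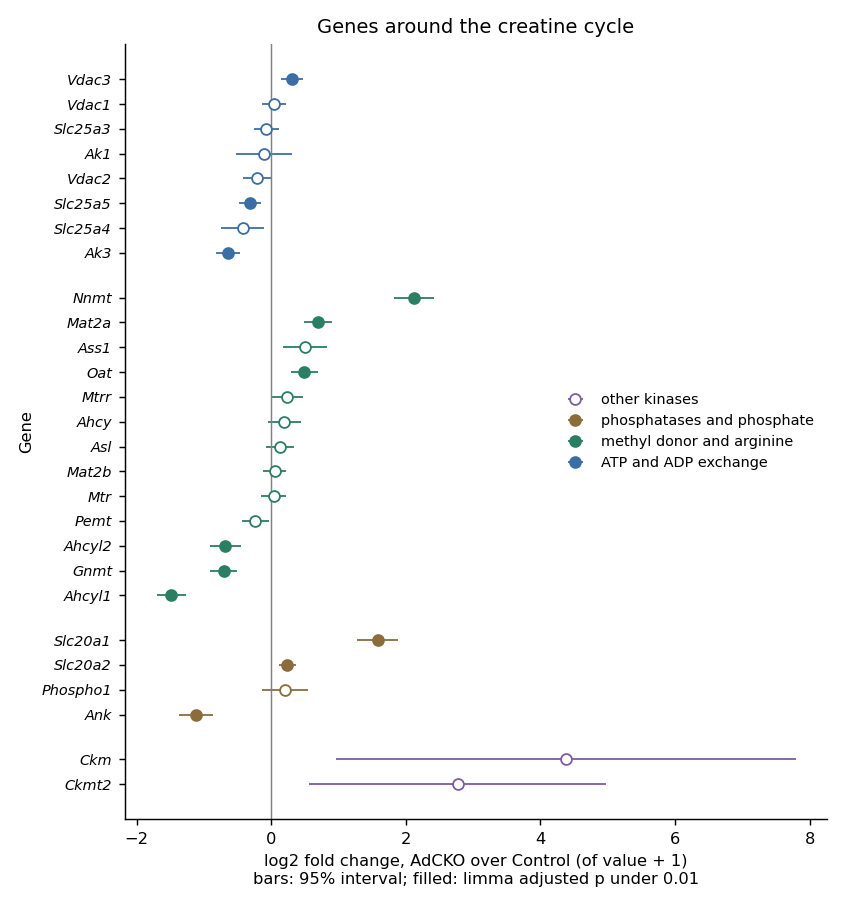
Log2 fold changes of AdCKO over Control with 95% intervals for tested genes of the other creatine kinases and the 3 lists (1 gene of ATP and ADP exchange is not drawn), filled where the limma adjusted p was under 0.01. Slc20a1 and Nnmt lie farthest to the right among the filled points, Ahcyl1 and Ank farthest to the left, and the wide intervals of Ckm and Ckmt2 come with their high values in AdCKO replicates 1, 2 and 4.

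Within the groups the genes of the cycle varied together only weakly or in opposite directions. After subtracting the group means, the Pearson correlation of log2 values over the 10 libraries was between -0.71 (Slc6a8 with Alpl) and 0.34 (Gatm with Alpl), and it was -0.70 for Ckb with Gatm. By the same measure the most similar genes were Usp31, Zfp507 and Pip5k1a for Ckb (0.97, 0.94 and 0.93), Llgl1, Rplp0 and Fam26f for Gatm (0.92 each), Dhrs7, Fgfrl1 and Creld1 for Gamt (0.98, 0.97 and 0.97), Kpna3, Lhfpl2 and Eea1 for Slc6a8 (0.95, 0.93 and 0.91), and Noxo1, Cdk5 and Fam65b for Alpl (0.91, 0.89 and 0.88). These are descriptions of 10 libraries, picked from 11244 genes, and carry no test.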

How the data were processed

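The deposited values are a signal: the authors aligned polyadenylated RNA reads by STAR (mm9), took exon counts through iRNA-seq, applied DESeq2 normalization and divided by the kb of exon counted. No value is 0, low genes vary least (median SD of log2 values in Control 0.0737 in decile 1 of level and 0.191 in decile 4), and at most 23.2% of low values lay within 0.1 of a whole read where chance gives 20%. Whole reads were therefore not recovered, depth is unknown and no count model was run. Fold changes of low genes may be understated, which was not tested. The authors' own log2 fold changes, p-values and lists of called genes were not used. Gene starts are printed 1-based.

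limma 3.58.1 in R 4.3.3 (lmFit, eBayes with trend, two-sided) was fitted to log2(value + 1) and tested on simulated data. Ratios and correlations were computed in Python 3.11.15 with scipy 1.17.1, and figures drawn with matplotlib 3.10.9. With 5 genes, 10 pairs were compared instead of the planned 15. Overlaps and shared sequence used the GENCODE vM1 annotation of mm9, coding transcripts only.

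The members and lists were chosen with earlier results of these data known. Named genes are the members, every other creatine kinase or transporter listed, and from each further list at most 4 called genes with the smallest p and those against their list's direction. Phospho1, and genes named for a single unusual library, were chosen after their values were seen. Values of 1 gene of the ATP and ADP list are not reported here. Emr1 is the table's symbol for Adgre1. Alternatives were the pseudocount, the filter, scaling, limma's settings, a muscle covariate, the replicate block and each library left out. The use of AdCKO replicates 3 and 5 alone was chosen after seeing the data.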

Additional observations from a re-analysis of the deposited data

Results flagged for a closer look

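Single libraries that lay far from the other 4 of their group (Dixon's test at the 95% level) were found in 6 of 80 groups, over 40 genes of the cycle and its lists and Crls1. Chance gives about 1 in 20. None concerned Gatm, Gamt, Slc6a8, Ckb or Alpl. Phospho1 reached 3303 (normalized reads per kb, as below) in Control replicate 4, where the other Control libraries reached 2283, and at 1989 in AdCKO replicate 4, where the others held at least 2650. Ak1, an adenylate kinase, was at 451 in AdCKO replicate 2, the library with the highest muscle markers, and at most 257 in the others. Slc20a2 was at 89.9 in Control replicate 5 (at least 99.1 in the others) and Ahcy at 37.3 in Control replicate 3 (at least 47.7). Arg1 was at 1.02 in AdCKO replicate 4, a level too low to test.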

How the results depend on the processing

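The calls and directions of Ckb, Gatm and Slc6a8 did not change in any of the 22 alternative fits run for each. Their log2 fold changes ran from 1.65 to 2.24, 0.98 to 1.82 and 0.99 to 1.59. With the same total in every library 5 members were called where 70.9% of all tested genes were, Gamt at 0.92 and Alpl at 0.50, and 10 genes of the methyl donor list. With array quality weights Gamt was called at 0.53, Alpl was at -0.0091, and 2 other kinases, Ckm and Ckmt2, were called. Those 2 were also called at an adjusted p under 0.05, whereas without a filter, or with a filter at a mean of 1, only 1 gene of that list was called (Slc16a12, which then entered the test). With single libraries left out, the count of that list ran from 0 to 2 and Alpl from -0.027 to 0.066. The pairs with an adjusted p under 0.05 then ran from 4 to 7, where fewer mice raise the lowest possible p. At 0.01 there were 0 such pairs, since 10 pairs and 5 mice a group give an adjusted p this small only when at least 8 pairs reach the lowest p. With the muscle covariate Ckm was at -0.026 and Ckmt2 at -0.041, and with AdCKO replicates 3 and 5 alone Ckm was at -0.26. Under the replicate block 3 members were called and 2 genes of the ATP and ADP list in place of 4. Same-numbered libraries had correlations of their deviations between -0.27 and 0.10, and 0 of 5 correlated best with its own number. edgeR and DESeq2 were not run, as whole reads could not be recovered.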
